A study of Mus musculus with 57 samples.

Results

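The Schlafen genes of the mouse were followed in RNA from CD11b-positive brain cells, microglia among them. The members are the 7 Schlafen genes Slfn1, Slfn2, Slfn3, Slfn4, Slfn5, Slfn8 and Slfn9, taken by symbol, out of 50565 genes in the count table of the first experiment and 53278 in that of the second. All 7 were present in both tables and all 7 passed the filter on low counts in both. Cells positive for CD11b, a surface integrin of myeloid cells, were isolated from the brains of wild-type (WT) mice and of littermates deficient in P2RY12 (KO), a nucleotide receptor of resting microglia. The sex experiment has adult males (4 WT, 5 KO) and adult females (4 WT, 5 KO) with no treatment in their labels. The LPS experiment has WT and KO animals labelled LPS or ns, with 8 WT ns, 9 WT LPS, 8 KO ns and 8 KO LPS libraries. LPS is lipopolysaccharide, a cell-wall component of Gram-negative bacteria, injected intraperitoneally (dose 1 mg/kg). The term ns is not defined in the labels and is used here as written. Neither the time after injection, nor the sex of the animals of the LPS experiment, nor the kind of P2ry12 allele is given in the sources used here. The labels do not say whether the libraries of the LPS experiment came from separate animals, so p-values there measure only the spread between these samples, which may be technical.

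Schlafen proteins are found in mammals and are best known from immune cells. They fall into short, intermediate and long forms. The long forms carry a helicase-like part and a nuclear localisation signal that the short forms lack. Many of the genes are induced by type I interferon, which acts through the receptor chains IFNAR1 and IFNAR2 and transcription factors that include STAT2 and IRF9. These factors bind interferon-stimulated response elements (ISRE) in promoters. Slfn1 and Slfn2 are the short members: Slfn1 was first described as a gene that slows T cell growth, and Slfn2 keeps T cells and monocytes quiescent and protects tRNA from cleavage. Slfn3 and Slfn4 are intermediate members. Slfn4 is induced in macrophages by interferon and by Toll-like receptor ligands, of which LPS is the classical example. Slfn5, Slfn8 and Slfn9 are long members. In the reference annotation the longest coding sequences ran to 337 codons for Slfn1, 378 for Slfn2, 640 for Slfn3, 602 for Slfn4, 884 for Slfn5 and 910 for both Slfn8 and Slfn9.

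The 7 genes lie in a single cluster on chromosome 11. In the coordinates deposited with the sex experiment (build GRCm39) the cluster runs from 82842175 to 83105980, a span of 264 kb that holds 14 genes, 7 of them the members. Slfn5, Slfn2, Slfn1, Slfn4 and Slfn3 are on the plus strand, and Slfn9 and Slfn8 on the minus strand. Slfn5 overlaps an antisense gene, Slfn5os, over 9333 bases. Slfn1 overlaps Gm53233, Slfn2 overlaps Gm20234 and Slfn9 overlaps Mir7679, each on the other strand. Stranded counting is not stated in the sources used here, so reads of a member and of its antisense partner cannot be told apart. Slfn5os was listed with 30.4% to 37.6% as many counts as Slfn5 in the sex experiment and with at most 0.253% in the LPS experiment. Near-identical stretches also join the members. Of the 50-base words of the Slfn8 transcripts 14.6% also occur in another gene of the family, mostly in the pseudogene Slfn10-ps, and the share was 11.2% for Slfn9, 8.16% for Slfn4, 7.39% for Slfn3, 4.27% for Slfn2, 0.606% for Slfn1 and 0 for Slfn5. Counts of Slfn8 and Slfn9 are therefore uncertain as far as reads from shared stretches were assigned to either gene. All 252 shared words of Slfn3 occur in Slfn4, a far more abundant member, so the low Slfn3 counts are uncertain in the same way.

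The promoter stretches with the ISRE core are shown because the members that carry it are the long ones, and because interferon targets are compared with the members further on. The core was searched on both strands as GAAA followed, after any 2 bases, by another GAAA, from 250 bases before to 50 bases after each start listed by RefSeq (build GRCm38.p6). It was present in 3 of the 7 members, Slfn5, Slfn8 and Slfn9, and in 3.99% of 27025 genes. A looser form without the first G, AAANNGAAA, which contains every match of the core, was found in 5 of 7 members and in 12.1% of genes. Slfn1 and Slfn4 hold the looser form by itself, and no match to either form was found in the windows of Slfn2 and Slfn3. The end of the Slfn1 window did not match the beginning of any annotated Slfn1 transcript, unlike the windows of the other members. The Slfn1 match is therefore less certain. The interferon-gamma element GAS, searched as TTCNNNGAA on both strands, was found in 0 of 7 members and in 9.55% of genes. The sequences below are written 5′ to 3′ in the direction of the gene, with the match in capitals. The match begins 155 bases before the start of Slfn5, 45 before that of Slfn9, 48 before that of Slfn8 and, in the looser form, 225 before that of Slfn4. In Slfn9, Slfn8 and Slfn4 it is read on the other strand. Slfn4 has another match to the looser form, at -153 from its start and in the direction of the gene, which is not in the stretch shown.
Slfn5, chr11:82951917-82951986, plus strand: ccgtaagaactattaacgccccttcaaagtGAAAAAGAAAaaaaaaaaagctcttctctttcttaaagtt
Slfn9, chr11:82991836-82991905, minus strand: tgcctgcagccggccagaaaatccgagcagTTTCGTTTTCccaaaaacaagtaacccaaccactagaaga
Slfn8, chr11:83020819-83020888, minus strand: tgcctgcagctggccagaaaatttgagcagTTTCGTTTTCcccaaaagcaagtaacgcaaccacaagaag
Slfn4, chr11:83174936-83174999, plus strand: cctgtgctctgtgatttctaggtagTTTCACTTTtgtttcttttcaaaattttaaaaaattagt
The Slfn8 and Slfn9 stretches are identical at 37 of 40 bases from the first printed base to the end of the core. Slfn8 has 2 listed starts, and the same core lies 136 bases before the other start. A match describes letters and does not show that a factor binds there.

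Some libraries stand apart, and the values for the members are given with and without them. Total counts ran from 15.9M to 168M per library (median 24.7M) in the LPS experiment and from 58.5M to 319M (median 92.0M) in the sex experiment. P2ry12 was lower in KO than in WT within each treatment but was not at 0: in the sex experiment it was at 309 to 526.4 CPM (counts per 1000000 counts of the library, its size scaled by TMM) in the KO animals and at 3007 to 5928 CPM in the WT animals. In the LPS experiment, without the WT libraries set apart below, it was at 585 to 1243 CPM in KO ns against 3516 to 5406 CPM in WT ns, and at 84.2 to 154 CPM in KO LPS against 400.3 to 1063 CPM in WT LPS, so that KO ns and WT LPS overlapped. The WT libraries that carry library number 2 in their names went against their treatment label. Saa3, an acute-phase gene, was at 1781 CPM in WT ns 1 and 2491 CPM in WT ns 5, against at most 64.3 CPM in the other 6 WT ns libraries. WT LPS 1 and WT LPS 6 had Saa3 at 1.59 and 3.21 CPM, against at least 1418 CPM in the other WT LPS samples. These 4 libraries were kept apart and enter no group mean below. WT LPS 8 and WT LPS 9 differed by less than any other pair within a group (ratio of chi-square to degrees of freedom 1.86, against 8.32 or more) and were counted as 1 sample, which left 6 WT ns, 6 WT LPS, 8 KO ns and 8 KO LPS samples. The microglia marker Tmem119 was present in all libraries of the LPS experiment, at no less than 563 CPM.

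The members differed in level per length. The order is by group mean, on the scale of CPM per kilobase of annotated exon (GENCODE, build GRCm38). Slfn2 had the highest mean in each of the 4 main groups of the LPS experiment. It was at 36.05 ± 16.5 in WT ns (SD, n = 6) and 30.6 ± 20.1 in KO ns (SD, n = 8). In KO ns its first place depends on KO ns 6, at 130 CPM of Slfn2 against 29.1 to 55.0 CPM in the other samples. That library also had the lowest Slfn8 of its group. Slfn8 had the second-highest mean in both ns groups, at 24.8 ± 2.73 in WT and 25.7 ± 6.72 in KO. Slfn4 followed at 21.7 ± 21.5 and 9.00 ± 8.78. Slfn1, Slfn5 and Slfn9 followed at 10.9 ± 9.09, 4.70 ± 1.51 and 1.93 ± 0.412 in WT ns. Slfn3 was the lowest in each group, at 0.361 ± 0.250 in WT ns, from 12 to 77 counts per library. In WT ns the intervals of mean ± SD overlapped between neighbours from Slfn2 down to Slfn5, and did not overlap between Slfn5 and Slfn9 or between Slfn9 and Slfn3. Under LPS, Slfn4 moved up to second place by mean in both genotypes, at 83.5 ± 23.9 in WT LPS and 74.2 ± 29.5 in KO LPS. Slfn8 was at 32.5 ± 7.83 and 45.3 ± 13.6. The intervals of mean ± SD of Slfn4 and Slfn8 overlapped in KO LPS and did not overlap in WT LPS. The exon length is not a length of the transcripts counted here, so the order is approximate.

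The members were higher under LPS in KO cells. 6 of the 7 rose in KO LPS against KO ns (edgeR quasi-likelihood test, Benjamini-Hochberg adjusted over 15857 genes, called under 0.05): the short members Slfn1 and Slfn2, the intermediate member Slfn4 and the 3 long members. Slfn3 was not called. Over all genes tested, 28.3% were called and 13.1% were called higher, and the median log2 fold change was -0.02, against a median of 1.71 over the 7 members. In WT, 3 of 7 rose, Slfn2, Slfn4 and Slfn5, where 30.3% of all genes were called and 14.8% were called higher. The median log2 fold change over the members was 1.00 in WT, and -0.01 over all genes. With the number 2 libraries in their labelled groups, 0 of 7 members and 0 of 15857 genes were called for LPS in WT, while 3605 genes had an unadjusted p under 0.05, and adjusted p became 0.120 for Slfn2, 0.270 for Slfn4 and 0.148 for Slfn5. In that fit 6 of 7 members were called in KO, where 22.3% of all genes were called. In bulk RNA, a change in the number of cells of a type and a change of RNA per cell cannot be told apart.

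**Figure D1:**
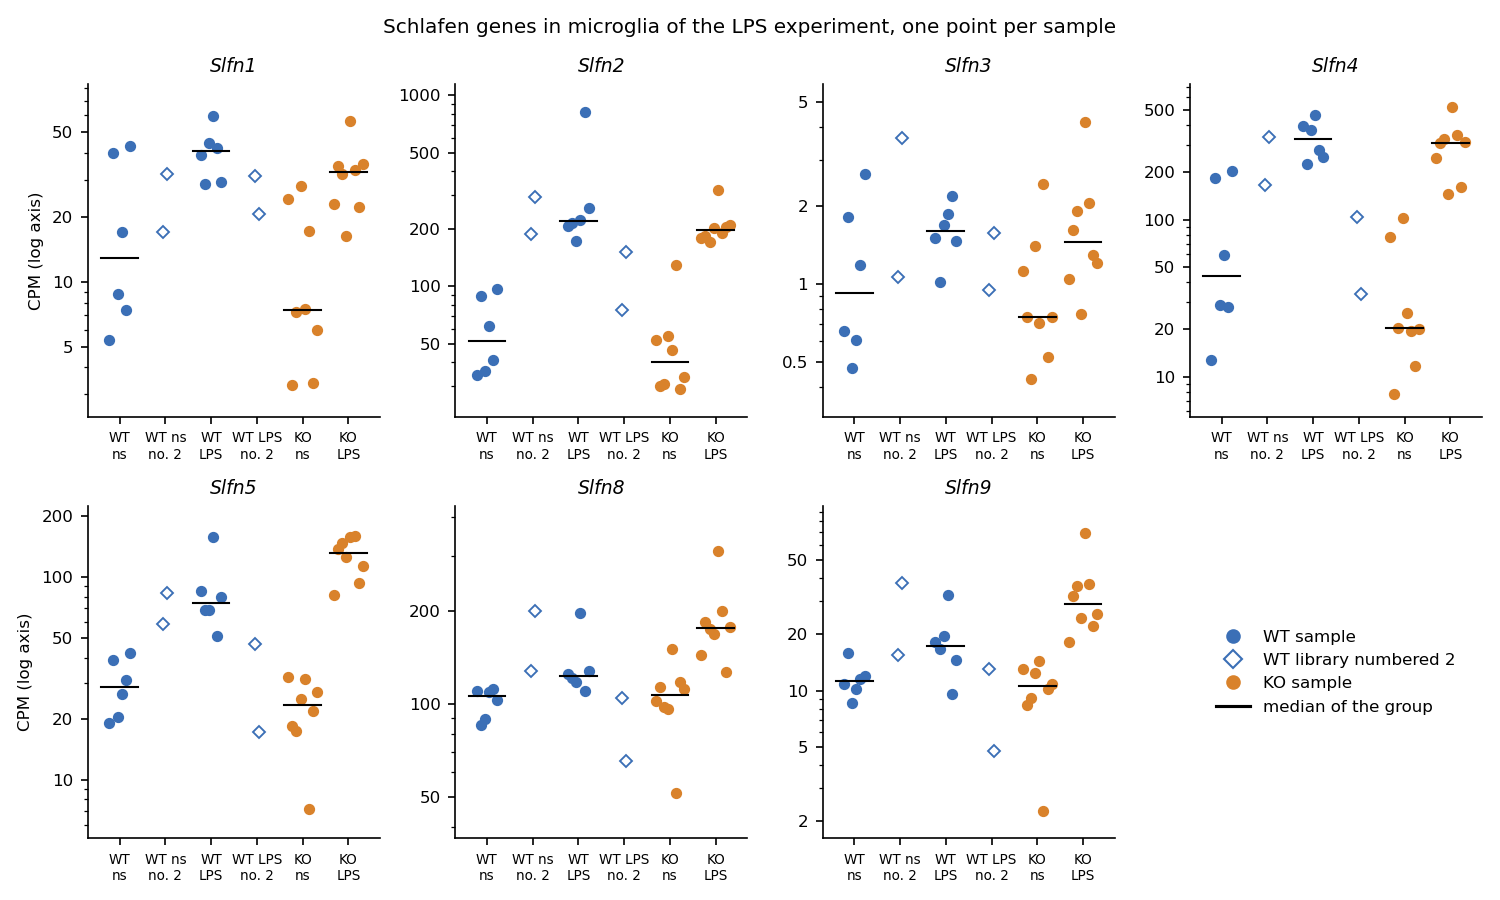
CPM of the 7 Schlafen genes in the LPS experiment (log axes), with 1 point per sample, WT in blue, KO in orange and a line at the median of each group. Open diamonds are the WT libraries numbered 2, which lie apart from the other libraries of the same label for Slfn2 and Slfn5; Slfn2, Slfn4 and Slfn5 are higher in every LPS sample than in every ns sample within each genotype when these are set aside.

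Slfn4, the intermediate member that macrophages induce on Toll-like receptor stimulation, had the largest fold change of the 7 in KO. It was at 7.76 CPM in the lowest, 20.3 in the median and 103 in the highest KO ns sample, and at 145, 308 and 517 CPM in KO LPS. The groups did not overlap, and the medians differed 15.2-fold. The log2 fold change was 3.11 ± 0.56 (SE, adjusted p = 8.35e-05 by edgeR). In WT, Slfn4 was at 12.7, 44.0 and 204 CPM in ns and at 227, 324 and 466.1 CPM in LPS, again without overlap, with a log2 fold change of 1.93 ± 0.61 (edgeR adjusted p = 0.0160). In library set 1 by itself the Slfn4 call was lost in KO (edgeR adjusted p = 0.0588) and in WT (0.117), and in set 2 by itself in WT (0.146). Of the libraries numbered 2, WT ns 1 was at 167 CPM, inside the range of the other ns samples, and WT ns 5 at 334 CPM, inside that of the LPS samples. WT LPS 1 and WT LPS 6, at 103 and 33.3 CPM, were below all other WT LPS samples.

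The high end of the Slfn4 values in ns samples came from a few libraries. Of the WT ns samples, number 3 was at 183 CPM, number 8 at 204 CPM and the other 4 at 12.7 to 59.5 CPM. In KO ns, KO ns 1 and KO ns 4 were at 77.9 and 103 CPM and the other 6 at 7.76 to 25.3 CPM. The summed CPM of 12 neutrophil markers was 19799 in WT ns 3, 18383 in WT ns 8, 8148 in KO ns 1 and 9312 in KO ns 4. KO ns 6 had the highest sum of its group, 10377 CPM, with Slfn4 at 19.4 CPM. Of the 12 neutrophil markers 0 were called in LPS against ns in KO and 3 were called lower in WT, and the range of the sum was 1081 to 10377 CPM in KO ns, 2026 to 4931 in KO LPS, 1852 to 19799 in WT ns and 2298 to 13735 in WT LPS. Microglia markers were called lower under LPS for 7 of 10 genes in each genotype, and T cell markers for 6 of 7 tested in KO and 3 of 7 in WT. Of all 15857 genes tested, 2410 were called lower and 2071 higher in KO, and 2459 lower and 2352 higher in WT. The summed CPM of 10 monocyte markers had a higher median under LPS, 720 (511 to 1027) in KO LPS against 243 (107 to 1359) in KO ns, and 916 (659 to 2972) in WT LPS against 554 (202 to 2609) in WT ns. In each genotype 2 of the 10 monocyte markers were called higher, Ms4a4c (log2 fold change 2.06 ± 0.45 in KO and 2.61 ± 0.53 in WT) and Vcan (1.34 ± 0.38 and 1.14 ± 0.43), and 1 was called lower, Ccr2 (-1.76 ± 0.38 and -1.65 ± 0.44). Ly6g, a defining neutrophil marker, was above 0 in every sample, with a lowest value of 1.21 CPM. Their part in the member differences was not tested directly. A setting added after seeing the data left out the 6 samples of the 4 main groups above 8000 CPM of neutrophil markers. These were KO ns 1, KO ns 4, KO ns 6, WT ns 3, WT ns 8 and WT LPS 7. Most were ns samples. WT ns 3, WT ns 8 and KO ns 4 had the highest Slfn4 of their groups, so the setting lowers the ns side. It was not a test of the part of neutrophils. With these samples left out, 7 of 7 members rose in KO and 6 of 7 in WT. In WT, Slfn1, Slfn3 and Slfn9 were added and Slfn8 was not called. In that setting 29% of all genes were called in KO and 23.9% in WT.

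Slfn2, the short member linked to quiescence of T cells and monocytes, rose in both genotypes. In KO it was at 29.1 CPM in the lowest, 40.1 in the median and 130 in the highest ns sample, and at 171, 197 and 321 CPM in LPS. In WT it was at 34.5, 51.7 and 97.0 CPM in ns and at 174, 219 and 815 CPM in LPS. Neither genotype had overlapping groups. The log2 fold change was 2.05 ± 0.31 in KO (edgeR adjusted p = 7.18e-06) and 2.32 ± 0.36 in WT (edgeR adjusted p = 1.28e-05). The number 2 libraries labelled ns were at 189 and 295 CPM, inside the range of the other WT LPS samples, and those labelled LPS were at 75.6 and 152 CPM, below all other WT LPS samples. WT LPS 7, at 815 CPM, lay far above the next WT LPS sample, at 258 CPM, and without it the log2 fold change in WT was 1.92.

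Slfn1, the other short member, overlapped between ns and LPS in both genotypes. It was at 3.30, 7.38 and 27.9 CPM (lowest, median, highest) in KO ns and at 16.5, 32.6 and 56.5 CPM in KO LPS. The log2 fold change in KO was 1.38 ± 0.45 (edgeR adjusted p = 0.0210). This call was lost when all libraries of number 2 were left out, KO included (edgeR adjusted p = 0.0556), and in library set 1 by itself (0.411). In WT it was at 5.36, 12.9 and 42.9 CPM in ns and at 28.8, 40.7 and 59.5 CPM in LPS, with a log2 fold change of 1.00 ± 0.51 (edgeR adjusted p = 0.139). The ns samples that reached into the LPS range were WT ns 3 (40.1 CPM) and WT ns 8 (42.9 CPM). The number 2 libraries were at 17.1 and 31.96 CPM with the ns label and at 31.2 and 20.7 CPM with the LPS label, values that do not separate.

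Slfn5 had the smallest adjusted p of the members in KO. This long member, whose human counterpart is a nuclear regulator of interferon-driven transcription, was at 7.21, 23.5 and 32.1 CPM (lowest, median, highest) in KO ns and at 81.3, 132 and 160 CPM in KO LPS. Every LPS sample was above every ns sample, with a log2 fold change of 2.49 ± 0.28 (edgeR adjusted p = 5.52e-08). In WT it was at 19.1, 28.7 and 42.2 CPM in ns and at 51.3, 74.3 and 158 CPM in LPS, also without overlap, with a log2 fold change of 1.52 ± 0.31 (edgeR adjusted p = 0.000414). The number 2 libraries were at 58.7 and 83.4 CPM with the ns label, inside the range of the other LPS samples, and at 46.9 and 17.2 CPM with the LPS label, below it. The highest WT LPS value, 158 CPM in WT LPS 5, lay apart from the other 5 samples, at 51.3 to 85.0 CPM.

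Slfn9, a long member, was at 2.28, 10.5 and 14.3 CPM (lowest, median, highest) in KO ns and at 18.1, 28.8 and 69.1 CPM in KO LPS. The groups did not overlap and the log2 fold change was 1.71 ± 0.31 (edgeR adjusted p = 0.000109). In WT the groups overlapped, with 8.60, 11.2 and 15.9 CPM in ns and 9.57, 17.4 and 32.4 CPM in LPS, and the log2 fold change of 0.68 ± 0.35 did not pass (edgeR adjusted p = 0.147). Slfn8, its neighbour in the cluster with the same coding length, differed least among the called members. It was at 51.4, 107 and 150 CPM in KO ns and at 127, 175 and 311 CPM in KO LPS, with overlap, and its log2 fold change was 0.81 ± 0.18 (edgeR adjusted p = 0.000945). In WT it was at 85.5, 106 and 111 CPM in ns and at 110, 123 and 197 CPM in LPS, with a log2 fold change of 0.39 ± 0.21 (edgeR adjusted p = 0.159). In library set 2 by itself the KO calls of Slfn8 (edgeR adjusted p = 0.200) and Slfn9 (0.0570) were lost. The number 2 libraries labelled ns were at 127 and 199 CPM for Slfn8 and at 15.4 and 37.6 CPM for Slfn9, and those labelled LPS at 104 and 65.0 CPM for Slfn8 and at 13.1 and 4.77 CPM for Slfn9.

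Slfn3, the scarce intermediate member, shares stretches with the far more abundant Slfn4, and reads from these could add to its counts. It had 12 to 100 counts per sample in the LPS experiment, and its precision is limited by this depth. It was at 0.430, 0.743 and 2.43 CPM (lowest, median, highest) in KO ns and at 0.766, 1.45 and 4.18 CPM in KO LPS, with a log2 fold change of 0.77 ± 0.37 (edgeR adjusted p = 0.123). The highest KO ns value came from KO ns 6. Without that library the log2 fold change was 1.06 (edgeR adjusted p = 0.0375). In WT it was at 0.472, 0.921 and 2.65 CPM in ns and at 1.02, 1.59 and 2.18 CPM in LPS (log2 fold change 0.42 ± 0.42, edgeR adjusted p = 0.482).

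Fewer members were without overlap than were called in KO, where Slfn1 and Slfn8 were called and overlapped. In KO, 4 of 7 members, Slfn2, Slfn4, Slfn5 and Slfn9, were higher in every LPS sample than in every ns sample, against 3.67% of all genes with 8 samples on each side. In WT, 3 of 7, Slfn2, Slfn4 and Slfn5, did so, against 10.9% of all genes with 6 samples on each side. Set against the medians of the 2 WT groups, WT ns 5 was nearer to the LPS median for 7 of 7 members, and WT ns 1 for 5 of 7. WT LPS 1 and WT LPS 6 were each nearer to the ns median for 5 of 7.

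**Figure D2:**
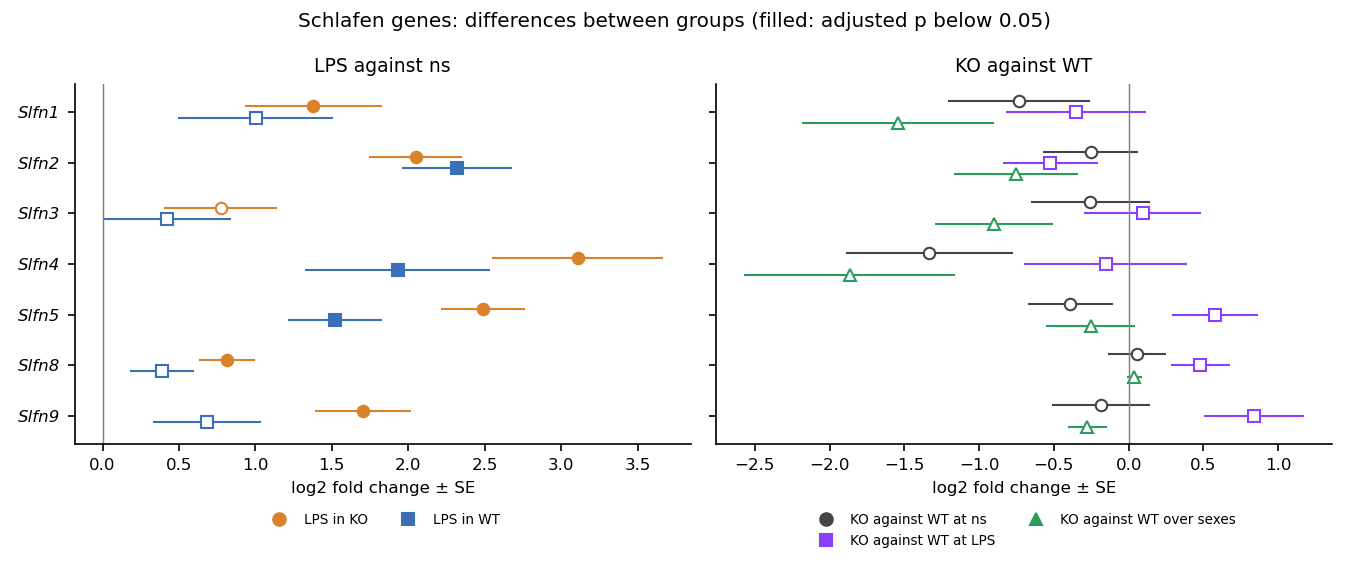
Log2 fold changes with their standard errors for the 7 Schlafen genes, LPS against ns in each genotype on the left and KO against WT on the right, with filled symbols where the adjusted p was under 0.05. All 7 estimates lie above 0 for LPS in both genotypes, 6 filled in KO and 3 in WT; none is filled on the right.

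The interferon pathway moved beside the members. Interferon ligand genes could not be tested: 0 of 10 listed genes passed the filter, and Ifnb1, interferon beta, had 0 to 21 counts per sample and was at 0 in 19 of 32. Of 5 receptor genes, 1 rose in KO and 0 in WT. Ifnar1 rose in KO (log2 fold change 0.57 ± 0.17, edgeR adjusted p = 0.0130), whereas Ifnar2 was at -0.01 ± 0.09 in KO and -0.02 ± 0.10 in WT. Of 10 signalling genes 5 rose in each genotype. Among them Stat2 rose by 1.55 ± 0.34 in KO and 1.13 ± 0.39 in WT on the log2 scale, and Irf9 by 0.82 ± 0.08 and 0.65 ± 0.10. Irf7, a transcription factor that amplifies the response, rose by 2.66 ± 0.28 and 2.24 ± 0.31. Of 4 feedback genes 3 rose in each genotype, among them Usp18, which dampens receptor signalling, at 2.18 ± 0.26 in KO and 2.26 ± 0.31 in WT, and the ubiquitin-like Isg15 at 2.24 ± 0.40 and 2.69 ± 0.47. Most of the targets rose. Of 29 tested interferon target genes 26 rose in KO and 21 in WT, with median log2 fold changes of 1.73 and 1.29. Over all genes tested, 13.1% were called higher in KO and 14.8% in WT. Rsad2, which encodes the antiviral enzyme viperin, rose by 2.55 ± 0.38 in KO and 2.06 ± 0.42 in WT, and Ifit3 by 1.53 ± 0.40 and 1.81 ± 0.47. The member medians, 1.71 in KO and 1.00 in WT, stand beside these as descriptions, with no test between the lists. These gene lists and the members were chosen with results of these data known.

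Over single samples, the members did not all follow the same genes. Likeness was measured over 28 samples as the root mean square difference in log2 CPM, each gene centred on its own mean, and the 3 nearest genes with at least 5 CPM were taken for each member. Slfn5 was nearest to Oasl2 (0.35), Mx1 (0.43) and Ifi206 (0.43), and Slfn9 to Eif2ak2 (0.33), Rnf213 (0.33) and Mx2 (0.36). Of these, Oasl2, Mx1, Eif2ak2 and Mx2 are in the list of interferon targets. Slfn8 was nearest to Ddx58 (0.19), the gene of the RNA sensor RIG-I, which the table gives under this older symbol, and to Tpr (0.19) and Dnajc13 (0.20), but it varied little itself, at 0.48 around its own mean. Slfn2 was nearest to Milr1 (0.31), Clec2d (0.33) and Ifitm2 (0.33). Slfn1 was nearest to Bst1 (0.30), Il1f9 (0.35) and Dhrs9 (0.36), and Slfn4 to Tarm1 (0.56), Bst1 (0.68) and Kif2c (0.71), so that Bst1 was among the nearest 3 of both. Slfn4 itself varied by 1.86 around its mean. Within the family the nearest pair was Slfn8 and Slfn9 (0.47), followed by Slfn5 and Slfn9 (0.51), and the farthest was Slfn4 and Slfn8 (1.64). Slfn3 was below 5 CPM and its nearest genes were not searched. Over the 18 animals of the sex experiment the order differed: Slfn1 and Slfn4 were the nearest pair (0.24), ahead of Slfn8 and Slfn9 (0.32), and Slfn4 and Slfn8 were again the farthest (1.36). All of these values share the libraries and their depth.

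Between KO and WT under the same treatment no member was called. In ns samples 0 of 7 members passed, where 0.0883% of all genes were called, and 1 member, Slfn4, had an unadjusted p under 0.05, as did 1415 of 15857 genes. Slfn4 was at a median of 20.3 CPM in KO and 44.0 CPM in WT, with a log2 fold change of -1.33 ± 0.56 (edgeR adjusted p = 0.504). It was -0.81 without WT ns 8, -0.51 in library set 1 by itself and -2.28 in set 2 by itself. The neutrophil marker sum moved with it, at a median of 2485 CPM in KO ns and 4240 CPM in WT ns, and its part in the difference was not tested. Slfn8 differed by 0.06 ± 0.19 on the log2 scale, and the other 5 members by -0.73 (Slfn1) to -0.19 (Slfn9). Under LPS 0 of 7 members passed, where 0.0946% of all genes were called. The 3 long members were at higher medians in KO: Slfn5 at 132 against 74.3 CPM (log2 fold change 0.58 ± 0.29, edgeR adjusted p = 0.831), Slfn8 at 175 against 123 CPM (0.48 ± 0.20, edgeR adjusted p = 0.679) and Slfn9 at 28.8 against 17.4 CPM (0.84 ± 0.33, edgeR adjusted p = 0.670). Slfn8 and Slfn9 had unadjusted p of 0.0208 and 0.0182 (edgeR) and failed the correction. Of all 15857 genes, 957 had an unadjusted p under 0.05 there. The short and intermediate members lay on both sides of 0: Slfn2 stood at -0.52 ± 0.32, Slfn1 at -0.35 ± 0.47, Slfn4 at -0.15 ± 0.55 and Slfn3 at 0.10 ± 0.39.

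The LPS fold changes of the 2 genotypes were compared directly by the genotype-by-LPS term. No member and no gene passed, at 0% of 15857 genes called and 756 with an unadjusted p under 0.05. For Slfn5 the log2 fold change was larger by 0.97 ± 0.40 in KO than in WT (edgeR adjusted p = 0.754, unadjusted 0.0226), and for Slfn9 by 1.02 ± 0.47 (edgeR adjusted p = 0.754, unadjusted 0.0364). Slfn4 stood at 1.18 ± 0.79, Slfn8 at 0.42 ± 0.27, Slfn1 at 0.38 ± 0.67, Slfn3 at 0.35 ± 0.56 and Slfn2 at -0.27 ± 0.45. The larger number of members called in KO than in WT is therefore not shown to be a difference between genotypes.

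In the sex experiment 2 WT animals set the spread of the family. Male WT 5 and female WT 2 were above the other 16 animals for 6 of the 7 members, and Slfn8 was the exception. For Slfn4, the male WT animals were at 22.6, 28.04, 61.5 and 514 CPM and the male KO animals at 24.7, 33.3, 36.2, 41.7 and 49.4 CPM. The female WT animals were at 10.2, 23.5, 31.4 and 307 CPM and the female KO animals at 15.8, 20.9, 24.3, 37.3 and 50.02 CPM. The 3 lower WT animals of each sex thus lay among or next to the KO animals. The log2 difference of KO against WT was -2.08 ± 1.00 in males (edgeR adjusted p = 0.719), -1.65 ± 1.00 in females (edgeR adjusted p = 1.00) and -1.87 ± 0.71 over both sexes (edgeR adjusted p = 0.488). Without the 2 animals, a setting added after seeing the data, the difference over both sexes was 0.22 (edgeR adjusted p = 1.00).

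**Figure D3:**
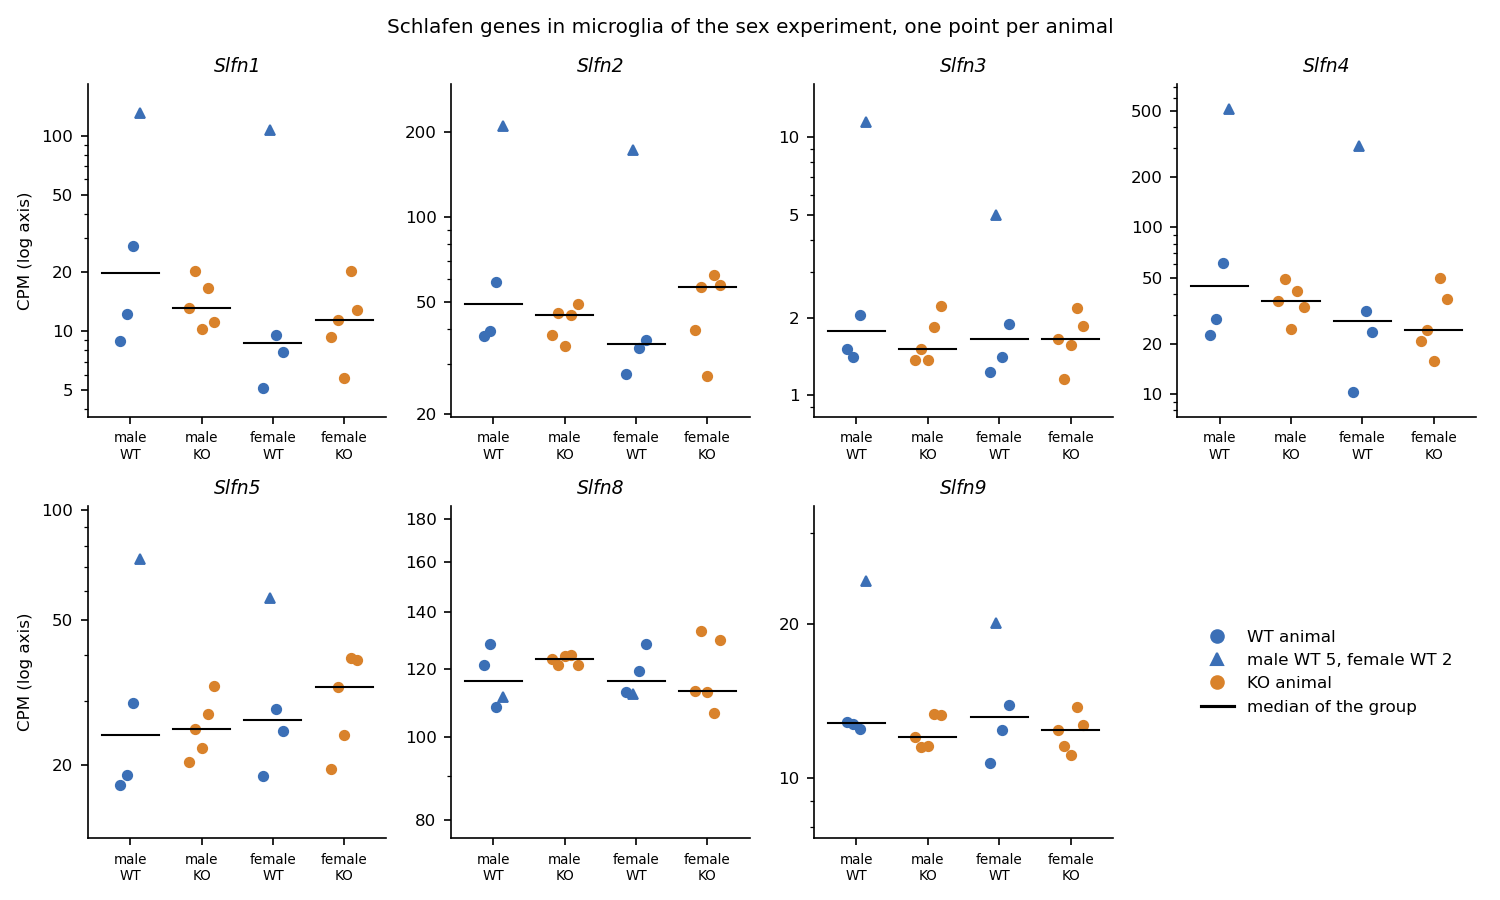
CPM of the 7 Schlafen genes in the sex experiment (log axes), with 1 point per animal and a line at the median of each group. Triangles mark male WT 5 and female WT 2, which are the highest animals for every member but Slfn8; Slfn8 stays between 107 and 133 CPM in all 18 animals.

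Slfn1, Slfn2 and Slfn3 repeated this split. Slfn1 was at 131 CPM in male WT 5 and 107 CPM in female WT 2, and at 5.12 to 27.3 CPM in the other 16 animals. Slfn2 was at 210 and 172 CPM, against 27.4 to 62.2 CPM. Slfn3 was at 11.5 and 4.99 CPM, against 1.16 to 2.22 CPM. The long members Slfn5 and Slfn9 were less far apart, at 73.5 and 57.4 against 17.6 to 39.4 CPM for Slfn5, and at 24.2 and 20.0 against 10.7 to 13.9 CPM for Slfn9. Slfn8 was at 111 and 112 CPM in these animals and at 107 to 133 CPM in the other 16, a 1.25-fold range over all 18. The summed neutrophil markers were at 50751 CPM in male WT 5 and 30217 CPM in female WT 2, against 1476 to 8588 CPM in the other 16 animals, with all 12 markers above 1 CPM in both. Monocyte markers reached 5084 CPM in the male WT and 2997 CPM in the female WT group, with group medians of 558 and 304 CPM. The part of these cells in the levels of the members was not tested.

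**Figure D4:**
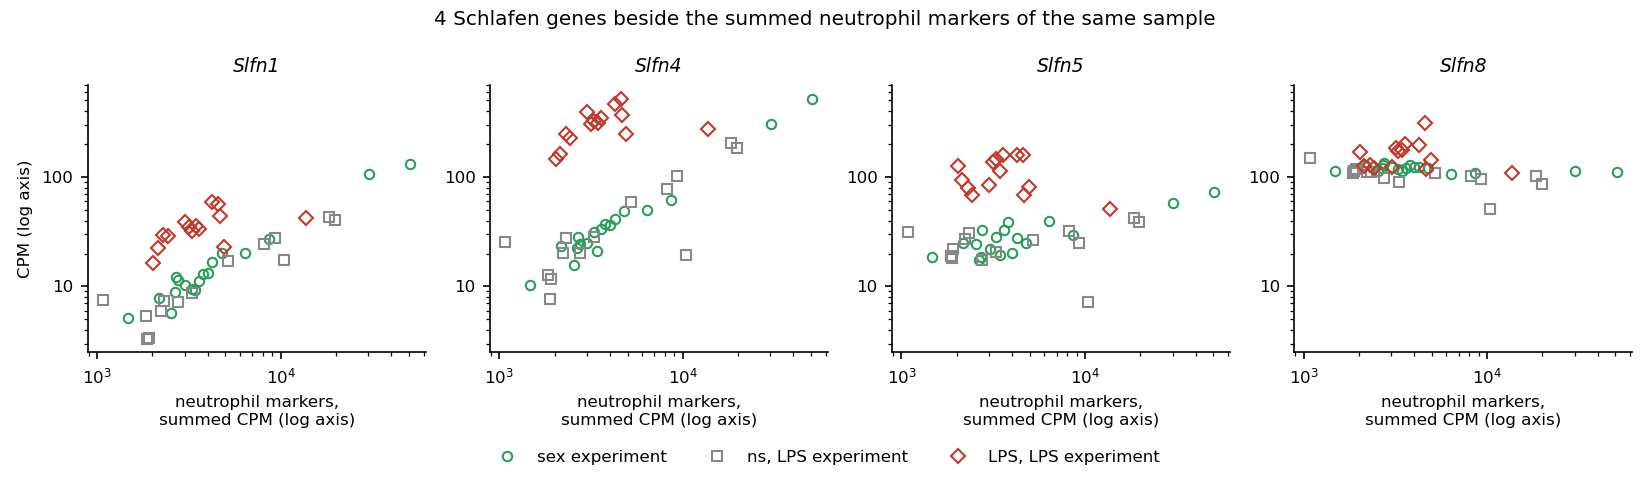
CPM of Slfn1, Slfn4, Slfn5 and Slfn8 (log axes) against the summed CPM of 12 neutrophil markers in the same sample, without the WT libraries numbered 2. The 2 rightmost circles are female WT 2 and male WT 5, highest of the sex experiment for Slfn1, Slfn4 and Slfn5 but at 112 and 111 CPM for Slfn8; LPS samples lie above ns samples of like marker sums for Slfn4.

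No member was called between KO and WT in the sex experiment. In males 0 of 7 passed, where 0.00946% of all 31709 genes tested were called, and 1 had an unadjusted p under 0.05, as did 2171 of all genes. In females 0 of 7 passed, where 0.164% were called, with 0 members and 1655 genes at an unadjusted p under 0.05. Over both sexes 0 of 7 passed, where 0.432% were called, and Slfn1, Slfn3, Slfn4 and Slfn9 had an unadjusted p under 0.05, as did 2860 of all genes. DESeq2 also called 0 of 7 in each of these comparisons. Over both sexes, Slfn1 stood at -1.54 ± 0.64, Slfn3 at -0.90 ± 0.40, Slfn2 at -0.75 ± 0.41, Slfn9 at -0.28 ± 0.13 and Slfn5 at -0.25 ± 0.29 on the log2 scale. Without male WT 5 and female WT 2 the difference changed sign to 0.25 for Slfn1, 0.23 for Slfn2, 0.08 for Slfn3 and 0.30 for Slfn5. Slfn8 had the smallest SE, at 0.04 ± 0.05. The sex-by-genotype term called 0 of 7 members and 0% of all genes, with 0 members and 879 genes at an unadjusted p under 0.05, and stood between -0.06 (Slfn8) and 0.81 (Slfn3).

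The make-up of the family's counts shifted with the samples as well. These shares are of counts and are not corrected for length. In male WT 5 Slfn4 held 47.8% of the counts of the 7 members and Slfn8 10.4%, whereas in male WT 1 Slfn4 held 10.1% and Slfn8 54.5%. Under LPS the Slfn8 share was 8.39% to 17.8% in WT LPS and 19.6% to 24.6% in KO LPS, against 18.8% to 56.8% in WT ns and 22.4% to 62.2% in KO ns. WT LPS 7 and KO ns 6 were led by Slfn2, at 62.4% and 56.4% of the family's counts, against 19.6% to 34.0% in the other WT LPS samples and 15.0% to 17.4% in the other KO ns samples. KO ns 6 had the lowest Slfn5, Slfn8 and Slfn9 of its group (7.21, 51.4 and 2.28 CPM) together with its highest Slfn2, at 130 CPM, and a P2ry12 level of 1243 CPM against 585 to 744 CPM in the other KO ns samples.

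Of the 3 other Schlafen genes of the tables none was called in the LPS experiment, and only Slfn10-ps could be tested there. Slfn10-ps, a pseudogene next to Slfn8, had a log2 fold change under LPS of 0.80 ± 0.32 in KO (edgeR adjusted p = 0.0621) and of 0.27 ± 0.37 in WT (edgeR adjusted p = 0.617). Slfn14, a long Schlafen gene beyond Slfn3 on the same chromosome that is known for its part in platelets and red cells, had 0 to 2 counts per sample in the LPS experiment. Slfnl1, a Schlafen-like gene on chromosome 4, had 0 to 21 counts there. Neither passed the filter on low counts in that experiment.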

How the data were processed

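Poly(A) RNA of CD11b-positive cells was sequenced on a NovaSeq instrument, per the labels' protocols. The authors deposited 1 table of whole-number read counts per gene for each experiment, not normalized. Per the submitters' processing notes, FastQC, STAR 2.6.1, featureCounts from Subread, DESeq2 and build GRCm39 were used; their options, roles and order are not given in the sources used here. Per the file headers, gene lengths of the sex table equal whole gene spans; how reads in introns or overlapping genes were assigned is not given in the sources used here. Columns were matched to samples by name; 6 repeat libraries in the labels have no column and were not analysed here.

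Counts were filtered with filterByExpr (15857 and 31709 genes kept), scaled by TMM and tested with edgeR 4.0.16 in R 4.3.3 (robust quasi-likelihood, Benjamini-Hochberg over all genes kept, called under 0.05). The LPS experiment was fitted with group means, the WT libraries of number 2 as levels of their own, and library set as covariate; the sex experiment with 4 group means. CPM used TMM-scaled library sizes. DESeq2 1.42.0, other scalings, filters and left-out libraries were alternatives. The test was checked on simulated counts with the same spread for every gene and no outlying libraries. Outlying libraries are present here, so that check does not cover them.

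The 7 members, the 3 other Schlafen genes and 11 interferon genes were to be named whatever their values (some genes are not reported here), and likeness as the 3 nearest genes; the members and all lists were chosen with earlier results of these data known. Protein sequences were not used here. Depth limits low genes such as Slfn3.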

Additional observations from a re-analysis of the deposited data

Results flagged for a closer look

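Of 56 member values by group, 16 had a highest or lowest sample separated from the rest by a gap beyond Dixon's 95% critical value for the size of the group, in 6 samples. Chance flags about 1 in 20 such groups, and the members share libraries, so the flags are not independent.

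Male WT 5 and female WT 2 hold 8 of the flags between them. In male WT 5 Slfn1 was at 131 CPM, Slfn2 at 210, Slfn3 at 11.5, Slfn4 at 514 and Slfn9 at 24.2 CPM, each the highest of the 4 male WT animals. In female WT 2 Slfn1 was at 107 CPM, Slfn2 at 172 and Slfn4 at 307 CPM, each the highest of the 4 female WT animals. The same animals had the highest neutrophil marker sums of the experiment, 50751 and 30217 CPM, and their part in these values was not tested.

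KO LPS 5 was the highest KO LPS sample for Slfn2 at 321 CPM, Slfn3 at 4.18, Slfn8 at 311 and Slfn9 at 69.1 CPM. WT LPS 5 was the highest WT LPS sample for Slfn5 at 158 CPM and Slfn8 at 197 CPM, and WT LPS 7 for Slfn2 at 815 CPM. KO ns 6 was the highest KO ns sample for Slfn2 at 130 CPM.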

How the results depend on the processing

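The 6 calls for LPS in KO and the 3 in WT each held in all 28 fits that left out 1 sample. Under DESeq2, other scaling (RLE), no filter and the groups compared by themselves the same members were called. For LPS in WT, 0 of 7 members were called with libraries as labelled and 1 in library set 2 by itself. Without the libraries above 8000 CPM of neutrophil markers, mostly ns samples, 6 were called. That setting, like the other left-out sets named for libraries or marker sums, was chosen after seeing the data. Set 1 by itself lost Slfn1 (adjusted p = 0.411) and Slfn4 (0.0588) in KO and Slfn4 (0.117) in WT, and gained Slfn8 (0.0114) in WT. Set 2 by itself lost Slfn8 (edgeR adjusted p = 0.200) and Slfn9 (0.0570) in KO, and Slfn4 (0.146) and Slfn5 (0.138) in WT. The cause of these changes was not tested.

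Values that were not called changed sign as follows, on the log2 scale. With libraries as labelled, Slfn8 was at -0.14 for KO against WT at ns, Slfn4 at 0.16 at LPS and Slfn2 at 0.78 for genotype by LPS. Without any library of number 2, Slfn8 was at -0.061 at ns and Slfn3 at -0.11 at LPS. In set 1, Slfn3 was at -0.068 at LPS, and for genotype by LPS Slfn1 was at -0.32, Slfn2 at 0.22 and Slfn3 at -0.068; in set 2 Slfn4 was at 0.12 at LPS. Slfn2 for genotype by LPS was at 0.52 without KO ns 6 and WT LPS 7 and at 0.31 without libraries above 8000 CPM. Among genes of at least 5 CPM, Slfn8 was at -0.016 in females. Without the animals above 10000 CPM of neutrophil markers, males had Slfn3 at 0.0028 and Slfn5 at 0.22, females Slfn1 at 0.68, Slfn2 at 0.56, Slfn3 at 0.16, Slfn4 at 0.45, Slfn5 at 0.37 and Slfn8 at -0.013, and both sexes Slfn1 at 0.25, Slfn2 at 0.23, Slfn3 at 0.082, Slfn4 at 0.22 and Slfn5 at 0.30. The cause was not tested.

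Leaving out 1 sample at a time gave these ranges where the sign changed. KO against WT at ns ran from -0.52 to 0.015 for Slfn2, -0.47 to 0.023 for Slfn3 and -0.023 to 0.17 for Slfn8, and at LPS from -0.14 to 0.19 for Slfn3 and -0.35 to 0.017 for Slfn4. Genotype by LPS ran from -0.026 to 0.67 for Slfn1 and -0.52 to 0.14 for Slfn2. KO against WT ran in males from -1.59 to 0.0026 for Slfn3 and -0.67 to 0.22 for Slfn5. In females it ran from -1.79 to 0.68 for Slfn1, -0.74 to 0.56 for Slfn2, -0.72 to 0.16 for Slfn3, -2.03 to 0.45 for Slfn4, -0.25 to 0.37 for Slfn5 and -0.033 to 0.051 for Slfn8. Over both sexes it ran from -0.37 to 0.079 for Slfn5. Sex by genotype ran from -1.25 to 2.33 for Slfn1, -0.39 to 1.59 for Slfn2, -0.50 to 1.47 for Slfn3, -1.64 to 2.53 for Slfn4, -0.28 to 0.82 for Slfn5 and -0.17 to 0.33 for Slfn9.

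On average, same-numbered samples did not deviate together in the LPS experiment (mean r 0.024 over 32 pairs). In the sex experiment the mean r was 0.0068 over 24 pairs. Single same-numbered pairs ran from -0.53 to 0.70 in the LPS experiment, and pairs of different numbers from -0.73 to 0.71. WT LPS 7 and KO ns 6, both led by Slfn2 (62.4% and 56.4% of the family's counts), share library set and library number. A mean over all pairs cannot decide whether a given number pairs its samples, and this was not tested. With the replicate number as a block, no member gained or lost a call, and Slfn8 at ns (-0.059) and Slfn3 at LPS (-0.048) changed sign.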

Other observations

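Slfn14, a Schlafen gene beyond Slfn3 on chromosome 11, was at 0 to 0.107 CPM in the LPS experiment. Depth differed between the experiments and counting may have, so its levels are not compared between them. In the sex experiment it had 2 to 1076 counts, at 0.0342 to 5.599 CPM, which reaches into the range of the LPS experiment. It was highest in male WT 5, at 5.599 CPM, and next in female WT 2, at 1.79 CPM, the animals with the highest neutrophil marker sums. Male KO 1 followed, at 1.104 CPM, and the other 15 animals were at 0.0342 to 0.597 CPM. The difference of KO against WT over both sexes was -1.40 ± 0.79 on the log2 scale (edgeR adjusted p = 0.656).

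Slfn10-ps, the pseudogene that shares 50-base words with Slfn8 and Slfn9, stayed within 2.88 to 5.42 CPM in the 18 animals of the sex experiment and did not stand out in male WT 5 (4.42 CPM) or female WT 2 (3.23 CPM). Its sex-by-genotype term was 0.60 ± 0.26 (edgeR adjusted p = 0.999, unadjusted 0.0332).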
